A study of Mus musculus with 2 samples.

Results

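Oxidative phosphorylation was examined through 65 nuclear genes grouped by symbol with complexes I, II, III and V, out of 31053 genes counted in each library. The genes were chosen by symbol (Nduf subunits, Sdha to Sdhd, all genes beginning with Uqcr and all beginning with Atp5) and by a total of at least 20 UMIs (unique molecular identifiers, 1 per captured transcript) over both libraries. The pattern matched 66 entries, and 1 of these, a duplicate listing of Atp5o, had no UMI and was left out. Complex I gave 37 members, complex II 4, complex III 8 and complex V 16, and their totals ran from 237 UMIs for Atp5s to 31101 for Atp5e. Ndufa4 and Ndufa4l2 count under complex I in all values here, although the Ndufa4 protein is now placed in complex IV. The choice used no comparison between cell types or diets.

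The cells came from the aortic arch of male Apoe-/- C57BL/6 mice of 16 weeks, a strain that lacks apolipoprotein E and clears cholesterol-rich lipoproteins poorly. The control (ND) group was fed chow, and the HFD group was fed a high-fat, high-cholesterol diet with lard and sodium cholate from weaning. Each group was 1 library made from the cells of 2 pooled aortas, so mice cannot be told apart and differences between the diets have no replicate check. No test was run on them. All intervals are exact 95% intervals for counting error alone, and a log2 ratio whose interval leaves out 0 may still lie within the spread between mice.

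In the mitochondrial inner membrane, complex I accepts electrons from NADH and complex II from succinate, complex III passes them on to cytochrome c, complex IV hands them to oxygen, and complex V (ATP synthase) uses the proton gradient so formed to make ATP. Complex II is encoded by nuclear genes alone. The other complexes are built from nuclear subunits together with a small set of subunits encoded in mitochondrial DNA, the mt- genes. UMIs of the nuclear members thus count RNA from nuclear genes and mt- UMIs count RNA made inside mitochondria, as present in the barcode and not as rates of transcription. Brown adipocytes and cardiomyocytes are known for dense mitochondria, whereas neutrophils rely largely on glycolysis.

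Because the members share a pathway, the bases before their start sites were searched for letters bound by factors known from respiratory genes. RefSeq start-site windows (GRCm38.p6, 250 bases before to 50 after the start) were found for 55 of the 65 members. Members with none in the table included Ndufa2, Ndufa4l2, Ndufb9, Ndufs1, Sdhc, Uqcrb, Uqcrc2, Uqcrq and Atp5a1. The NRF1 motif was present on either strand in 16 of 55 members (29.1%) and in 5.19% of 27025 genes with a window. The ETS motif CCGGAAG, read by GABP among others, was present in 13 members (23.6%, against 9.93% of all genes), and the YY1 motif AAGATGGCG in 7 (12.7%, against 1.64%). At least 1 of these was in 31 members (56.4%, against 15.1%), while TATAAA was in 5 (9.09%, against 15.7%). These are letter matches and were not tested as binding sites. Upstream sequence of 5 members, taken from all 4 complexes, with the NRF1 or ETS letters is given below to show how such matches lie before the start in RefSeq bases on GRCm38.p6, read 5′ to 3′ on the minus strand, with the matching letters in capitals. Sdha and Sdhd encode complex II subunits, Uqcrh the hinge subunit of complex III, Atp5e the epsilon subunit of complex V and Ndufs5 an accessory subunit of complex I. The stretches are chr13:74350281-74350400 for Sdha, chr9:50603850-50603969 for Sdhd, chr4:116075072-116075191 for Uqcrh, chr2:174464106-174464225 for Atp5e and chr4:123718203-123718322 for Ndufs5, each upstream of the gene as annotated.
Sdha: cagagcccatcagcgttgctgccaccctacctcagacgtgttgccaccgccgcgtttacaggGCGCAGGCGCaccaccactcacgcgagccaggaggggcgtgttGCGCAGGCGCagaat
Sdhd: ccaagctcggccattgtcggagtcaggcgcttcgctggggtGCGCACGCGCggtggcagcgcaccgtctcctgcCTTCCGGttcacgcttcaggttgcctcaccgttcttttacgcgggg
Uqcrh: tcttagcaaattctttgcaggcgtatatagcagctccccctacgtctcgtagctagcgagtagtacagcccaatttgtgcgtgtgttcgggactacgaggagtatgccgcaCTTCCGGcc
Atp5e: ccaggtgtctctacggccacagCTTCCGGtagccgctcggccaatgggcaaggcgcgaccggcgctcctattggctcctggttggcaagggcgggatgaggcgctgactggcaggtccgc
Ndufs5: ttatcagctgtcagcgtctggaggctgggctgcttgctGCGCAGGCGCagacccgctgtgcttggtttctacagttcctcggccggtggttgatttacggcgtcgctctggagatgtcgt
Sdha carried the NRF1 letters 2 times in this stretch and Ndufs5 carried them 1 time, Sdhd carried 1 NRF1 and 1 ETS match, and Uqcrh and Atp5e carried 1 ETS match each. None of the 5 stretches held TATAAA.

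Limits of at least 200 genes, at least 200 UMIs and at most 30% mt- UMIs kept 5416 ND and 2739 HFD barcodes, which hold 27137322 and 17191279 UMIs. The HFD library stands apart, since 7215 of its 9954 barcodes with enough genes and UMIs lay above the 30% limit, compared with 2299 of 7715 in ND. The paper removed barcodes above this limit as low quality or dying cells, so values given below for them come from barcodes that it left out. Haemoglobin genes took 3.27% of kept nuclear-gene UMIs in HFD and 0.454% in ND. In all, 39 barcode sequences were listed in both libraries, of which 1 was kept in both. Cell classes were set by gates on marker genes, with at least 3 different markers of a class and at least 70% of all marker UMIs in that class. Barcodes that failed the second condition (432 ND and 300 HFD) were called mixed and left out, and no doublet caller was run. The largest classes were endothelial (2416 ND and 1246 HFD barcodes), fibroblast (977 and 427) and macrophage (368 and 532), and every marker of these 3 lists had UMIs in its own class. Levels below are UMIs per 1000000 UMIs of nuclear genes (CPM), so the mt- UMIs do not enter the divisor.

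Across classes, the summed level of the 65 members was highest in adipocytes and cardiomyocytes, lowest in neutrophils, and between these in the rest. Endothelial barcodes held 11812 CPM in ND (95% interval 11747 to 11877) and 12253 in HFD (12167 to 12339). In ND, fibroblasts (11799), B cells (11828), club cells (11904) and macrophages (11548) lay beside the endothelial class, and the intervals of the first 3 overlapped it. T cells held 13355 CPM in ND, Schwann cells 14045 (22 barcodes) and natural killer cells 15992 (15 barcodes). Mural cells, which are smooth muscle cells and pericytes, held 17551 CPM in ND (17033 to 18080, 53 barcodes) and 16040 in HFD (15177 to 16940, 22 barcodes). Neutrophils held 5354 CPM in ND (4969 to 5760, 79 barcodes) and 5816 in HFD (4814 to 6965, 6 barcodes), so that both upper bounds lay under the lower bound of every other class with kept barcodes. Ribosomal protein genes stay in the divisor, and their share of nuclear-gene UMIs differed between classes. In ND it was 12.2% in endothelial barcodes, 32.7% in B cells, 28.1% in T cells and 4.34% in neutrophils. Its part in the differences and likenesses between classes was not tested.

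**Figure D1:**
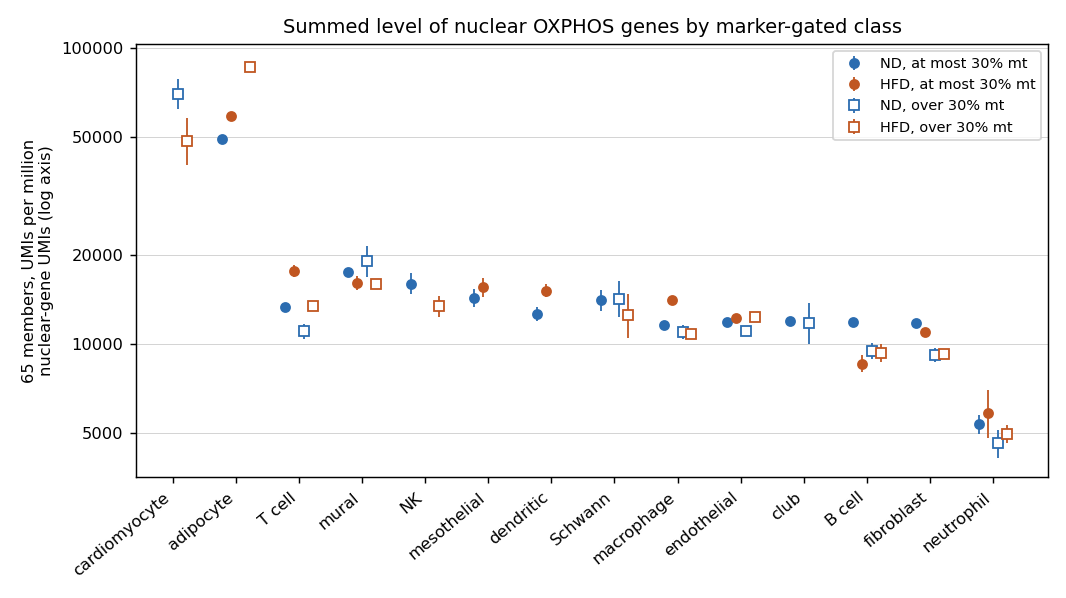
Summed level of the 65 members in CPM of nuclear-gene UMIs (log axis) for each marker-gated class with at least 5 barcodes. Filled circles are barcodes with at most 30% mt- UMIs, open squares those above it, colours mark the diets, and bars are 95% counting intervals; adipocytes and cardiomyocytes sit at the top, neutrophils at the bottom, and the other classes between them.

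Adipocytes carried 49444 CPM of the members in ND (48660 to 50238, 24 barcodes) and 58855 in HFD (57151 to 60597, 8 barcodes), 4.19-fold and 4.80-fold the endothelial level of the same library. In the middle barcode of the class, 4.44% of nuclear-gene UMIs in ND were members (quartiles 3.59% and 5.48%), compared with 1.15% (0.961% and 1.35%) in the middle endothelial barcode. All 6 adipocyte markers had UMIs in the ND class and 5 in HFD, where Lep was at 0. Ucp1, the uncoupling protein of brown and beige adipocytes and 1 of the 6 markers of the gate, stood at 193 CPM in ND and 3883 in HFD, and a further 13 HFD adipocyte barcodes above the 30% limit held 9988 CPM of Ucp1 and 86319 CPM of the members (84112 to 88570). The highest Ucp1 and the highest member level were in the same set of barcodes. Ppargc1a, a coactivator that drives mitochondrial genes, was at 81.6 CPM in ND adipocytes, 873 in HFD and 893 above the limit.

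The excess in adipocytes was shared by nearly all members. In ND, 61 of 65 members were at least 1.5-fold above the endothelial level, where 24.1% of 11937 genes were, and in HFD 63 of 65 were, where 25.4% of 10747 genes were. Complex II showed the widest gap, with a summed log2 ratio of 2.84 in ND and 2.86 in HFD, and complex V the smallest, with 1.89 and 2.10. Sdha, the flavoprotein of succinate dehydrogenase whose upstream bases are shown above, stood at 861 CPM in ND adipocytes and 109 in ND endothelial barcodes. Uqcrfs1, the Rieske iron-sulphur protein of complex III, stood at 795 CPM in HFD adipocytes and 79.3 in HFD endothelial barcodes, a log2 ratio of 3.33 (2.92 to 3.71). Atp5b, the catalytic beta subunit of ATP synthase, was at 2098 and 346 CPM in ND. Atp5j, which encodes coupling factor 6 of complex V, did not share the excess, with 571 CPM in ND adipocytes against 513 in endothelial barcodes (log2 0.15, -0.07 to 0.37) and 521 against 519 in HFD (0.00, -0.48 to 0.45). Atp5g1, with 232 CPM against 163 in ND (0.50, 0.14 to 0.85), also stayed under 1.5-fold. Ndufa4l2 had 0 UMIs and Atp5s 1 UMI in ND adipocytes, counts too low to place them. The list of 16 complex IV subunits, which the choice of members leaves out, was also higher, at 21991 CPM against 4291 in ND (log2 2.36).

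**Figure D2:**
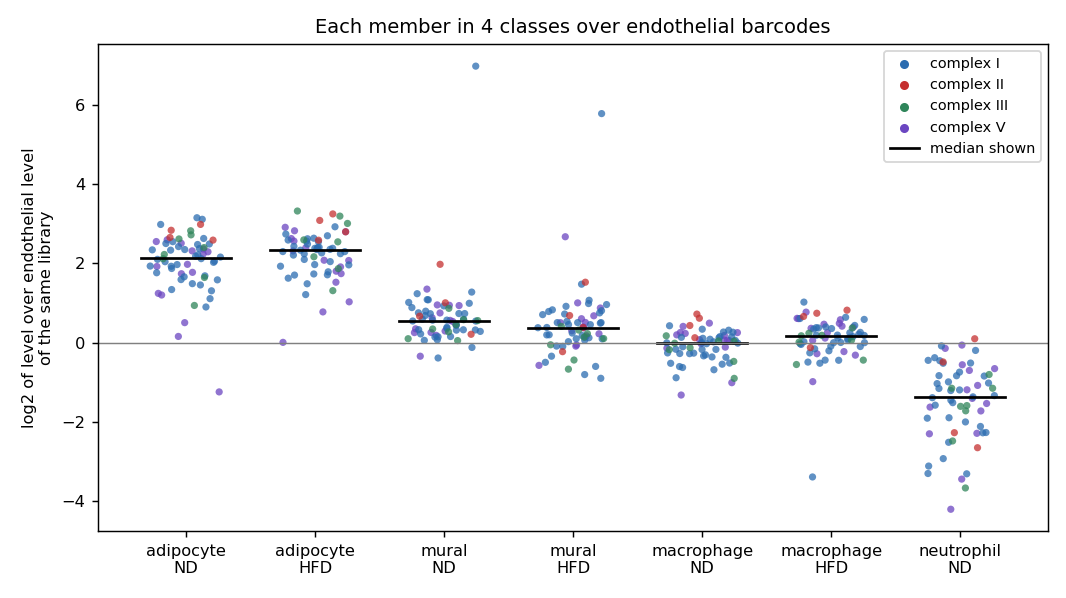
Log2 of each member's level over its endothelial level in the same library, for adipocytes, mural cells and macrophages in both libraries and neutrophils in ND; points are members coloured by complex, lines are medians of the points drawn, and members with 0 UMIs in a class are not drawn. Nearly all adipocyte points lie above 0 and nearly all neutrophil points below it, and the lone high mural point is Ndufa4l2.

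Cardiomyocyte barcodes were found only above the 30% limit, 10 in ND and 6 in HFD, and 0 of 16 were kept, which allows a kept share of up to 18.75%. They held few nuclear-gene UMIs, so single members are imprecise. Their summed member level was 69982 CPM in ND (62025 to 78678) and 48494 in HFD (40335 to 57819), 6.32-fold and 3.93-fold the level of endothelial barcodes that were also above the limit (11068 and 12343 CPM). Of the 63 members with enough UMIs in ND, 55 were at least 1.5-fold higher, where 18.9% of 5755 genes were. In HFD 46 of 64 were, where 11.7% of 9929 genes were. The log2 ratio was 2.56 in ND and 2.08 in HFD for complex I, 2.26 and 1.97 for complex III and 2.96 and 1.88 for complex V, with overlapping intervals of these 3 in HFD, while complex II, with Sdha at 0 UMIs in the cardiomyocytes of both libraries, gave 1.34 in ND with a wide interval (-0.95 to 2.90). All 6 adipocyte markers were at 0 in the cardiomyocyte class of both libraries.

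Muscle and fat isoforms separated the classes that were rich in members. Cox6a2, the heart and skeletal muscle form of a complex IV subunit, made up 18 of 19 Cox6a UMIs in ND cardiomyocytes (94.7%) and 11 of 14 in HFD (78.6%), and 0 of 464 in ND adipocytes, which allows a share of up to 0.647%. Cox7a1, a form of muscle and brown fat, took 22.6% of Cox7a UMIs in ND adipocytes (19.2% to 26.4%), 38.5% in HFD (31.9% to 45.4%) and 51.8% in HFD adipocytes above the limit (46.7% to 57.0%), but 3.39% in ND endothelial barcodes. Cox8b, another form of muscle and brown fat, took 22.8%, 29.4% and 53.3% of Cox8 UMIs in the same 3 sets of adipocytes and 4.59% in ND endothelial barcodes. The order of the 3 sets was the same for Ucp1, Cox7a1 and Cox8b. In endothelial barcodes Cox7a1 stood at 14.3 CPM in ND and 37.4 in HFD and Cox8b at 28.6 and 72.4, beside higher Ucp1 in HFD (10.7 CPM in ND and 113 in HFD) and the 6 adipocyte markers summed to 53.6 and 156 CPM, whose part in these values was not tested. Shares within a family compare UMIs, without a correction for transcript length.

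**Figure D3:**
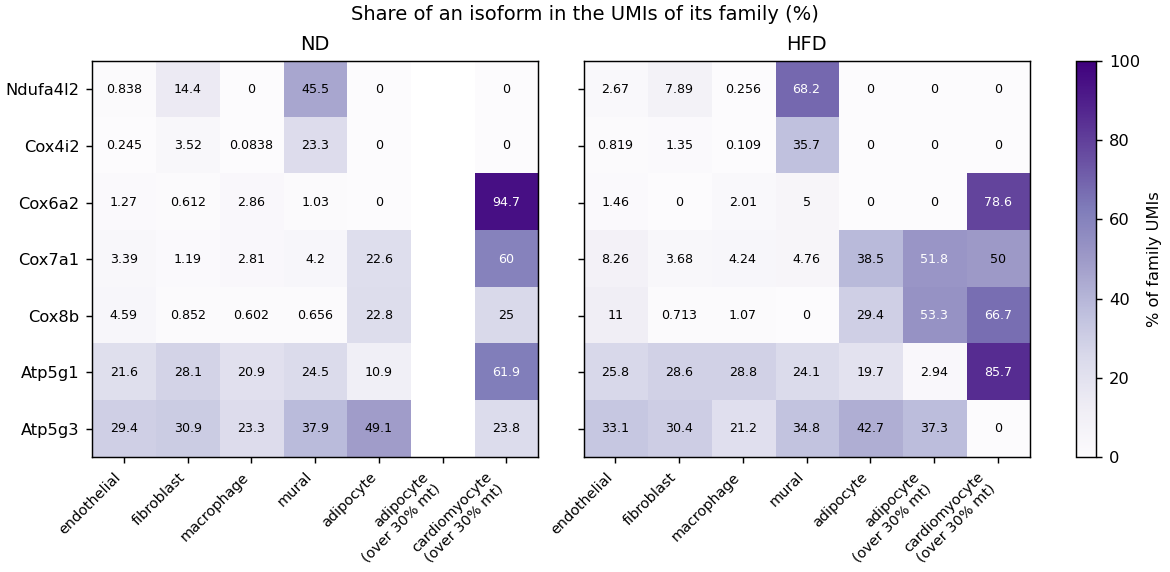
Share of 7 isoforms in the UMIs of their family, in percent, for 7 sets of barcodes in each library; the ND column of adipocytes over 30% mt is empty because it held under 5 barcodes. Ndufa4l2 and Cox4i2 stand out in mural cells, Cox6a2 in cardiomyocytes, and Cox7a1 and Cox8b in adipocytes and cardiomyocytes.

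The proton-carrying c ring of ATP synthase is encoded by Atp5g1, Atp5g2 and Atp5g3, whose mature proteins are the same and whose genes differ in their import sequences and control. Atp5g2 was the leading gene in ND endothelial barcodes, with 49.0% of the family's 8092 UMIs, followed by Atp5g3 (29.4%) and Atp5g1 (21.6%). In ND adipocytes Atp5g3 led with 49.1% of 652 UMIs (45.2% to 53.0%), and Atp5g1 took 10.9% (8.60% to 13.5%). In HFD adipocytes above the limit Atp5g1 took 3 of 102 UMIs (2.94%, 0.611% to 8.36%). In ND cardiomyocytes the order was turned, with Atp5g1 at 13 of 21 UMIs (61.9%, 38.4% to 81.9%), on a count that leaves a wide interval.

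Ndufa4l2 was the member whose share of the module differed most between the 5 classes with at least 20 barcodes in both libraries. It is a paralog of Ndufa4, which is grouped by name with complex I although its protein is now placed in complex IV, and Ndufa4l2 is known as a gene induced by low oxygen and as a pericyte marker. Mural cells held 367 CPM of Ndufa4l2 in ND (91 UMIs) and 560 in HFD (45 UMIs). Fibroblasts held 59.7 and 28.3 CPM, endothelial barcodes 2.89 and 10.1, and macrophages 0 and 3 UMIs. Among the mural barcodes of ND, the 15 with more pericyte than smooth muscle marker UMIs held 820 CPM of Ndufa4l2 (596 to 1101) and the 38 with more smooth muscle marker UMIs 242 (178 to 322). In HFD the same sets, of 8 and 14 barcodes, held 1315 (851 to 1942) and 326 (199 to 503). Ndufa4 ran the other way, at 131 CPM in ND pericyte-side barcodes (52.5 to 269) and 526 in smooth muscle-side barcodes (429 to 638), and at 158 (32.6 to 461) and 293 (174 to 463) in HFD, where the intervals overlapped. Cox4i2, the low-oxygen form of the complex IV subunit Cox4i1, had a like pattern across classes, with 246 and 373 CPM in mural cells against 1.77 and 5.30 in endothelial barcodes.

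The members as a whole were lower on the pericyte side, at 12620 CPM against 18914 on the smooth muscle side in ND (log2 -0.58, -0.70 to -0.47) and 11365 against 17487 in HFD (-0.62, -0.84 to -0.41). The smooth muscle side lay above the endothelial level in both libraries, while the intervals of the pericyte side (11687 to 13607 and 9900 to 12986) held it. Over the whole mural class, 27 of 65 members were at least 1.5-fold above endothelial barcodes in ND, where 26.8% of 11985 genes were, and 1 was lower, where 34.1% were. In HFD 19 were higher and 4 lower, where 29.9% and 39.6% of 10769 genes were, and the share of higher HFD members was near that of all genes. Sdhc, a membrane anchor of complex II, stood at 186 CPM in ND mural cells and 137 in HFD, compared with 47.1 and 47.5 in endothelial barcodes, 72.2 and 79.4 in macrophages and 26.5 and 37.2 in T cells. Ndufa5, an accessory subunit of complex I, stood at 303 and 274 CPM in mural cells and 79.9 and 106 in macrophages. Sdhc and Ndufa5, with Uqcrb and Atp5j, were among the members with the widest ranges after Ndufa4l2.

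Uqcrb and Atp5j took their highest share of the module in the endothelial class among these 5 classes. Uqcrb, a small subunit of complex III, held 419 CPM in ND endothelial barcodes and 404 in HFD, against 224 and 275 in macrophages and 193 and 167 in T cells. Atp5j held 513 and 519 CPM in endothelial barcodes, 288 and 231 in fibroblasts, and 205 and 262 in macrophages. Mural cells held 448 and 473 CPM of Uqcrb and 404 and 348 of Atp5j. In macrophages of ND, the members as a whole stood at -0.03 (log2, -0.06 to -0.01) relative to endothelial barcodes, with 2 members at least 1.5-fold higher and 8 lower, where 21.1% and 40.4% of 12302 genes were. The 2 higher were Sdhc (log2 0.62) and Sdhd (0.72), both membrane anchors of complex II, and complex II as a whole stood at 0.40 (0.27 to 0.53) in ND and 0.50 (0.39 to 0.60) in HFD. In HFD macrophages the members stood at 0.19 (0.18 to 0.21) relative to endothelial barcodes, with 10 higher and 2 lower, where 23.2% and 39.8% of 11615 genes were. The ND value is not stable in sign, at 0.24 under median-of-ratios scaling.

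Neutrophils held less of nearly every member. In ND, 53 of 65 members were at least 1.5-fold below the endothelial level, where 72.6% of 11889 genes were. The 79 neutrophil barcodes held 133926 nuclear-gene UMIs, and the part of this count in these shares was not tested. The median log2 ratio was -1.41 for members and -2.30 for all genes tested, so the median shortfall of the members was not larger than that of all genes. Atp5e was an exception, at 500 CPM against 523 in endothelial barcodes (log2 -0.06, -0.43 to 0.28), as was Sdhd at 44.8 against 41.9 on 6 UMIs. Atp5g1 stood at 14.9 CPM (2 UMIs) against 163. In HFD, only 6 of 160 neutrophil barcodes were kept.

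Among kept barcodes, whose mt- share cannot pass 30%, that share did not follow the nuclear members from class to class. For complex I, the mt-Nd genes together had 5.45 UMIs for each UMI of the nuclear members in ND endothelial barcodes and 8.71 in HFD. In adipocytes the ratio was 2.13 and 2.10, and in neutrophils 21.0 and 25.2. In ND the median mt- share was 17.3% in endothelial barcodes, 21.5% in adipocytes, which had the highest nuclear level of the kept classes, and 24.7% in neutrophils, which had the lowest. In HFD it was 22.3% in endothelial barcodes and 21.8% in adipocytes. Above the limit, cardiomyocytes had median mt- shares of 63.8% in ND and 76.6% in HFD, and endothelial barcodes 40.1% and 49.6%. HFD adipocytes above the limit, also rich in members, had 44.7%. In HFD the 30% limit kept 1246 of 5343 endothelial barcodes, 532 of 971 macrophages, 22 of 132 mural cells, 21 of 305 T cells and 8 of 21 adipocytes.

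Within classes, the relation depended on the class. In macrophages of ND the member level was 13582 CPM at mt- shares up to 10%, 11600 from 10% to 15%, 10768 from 15% to 20%, 10256 from 20% to 25% and 9611 from 25% to 30%. In HFD macrophages it was 16035, 15112, 13602, 13084 and 12269 in the same bins, and 11104 from 30% to 40% and 9934 from 40% to 50%. In ND macrophages the fall ended at the limit, with 10331 CPM from 30% to 40% and 10513 from 40% to 50%. Fibroblasts of ND had 12211 CPM in the lowest bin, 9774 from 25% to 30% and 8294 from 30% to 40%. Endothelial barcodes stayed within 11439 and 11992 CPM over the 5 kept bins in ND and within 11712 and 12879 in HFD. From 50% to 70% mt- UMIs the level was 14520 CPM in 39 ND macrophages and 10134 in 96 HFD macrophages, and 10597 in ND and 7969 in HFD fibroblasts. HFD fibroblasts had 9736 CPM from 30% to 40% and 8622 from 40% to 50%, so their level was lower in each of these 3 bins than in the one before. Barcodes with low mt- shares were also deeper, with a median of 7562 UMIs in the lowest bin of ND macrophages and 3772 in the highest kept bin, and the part of depth in the relation was not tested. With every barcode thinned to 1000 nuclear-gene UMIs, the rank correlation of member UMIs with mt- share was -0.18 over 365 ND and -0.22 over 531 HFD macrophages, -0.10 over 921 and -0.06 over 422 fibroblasts, and -0.05 over 2389 and 0.04 over 1245 endothelial barcodes, given as descriptions of barcodes that share a library. Member UMIs and complex IV UMIs correlated at 0.19 to 0.29 in these 6 sets. A thinned barcode held a median of 10 to 13 member UMIs, which limits any such value.

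**Figure D4:**
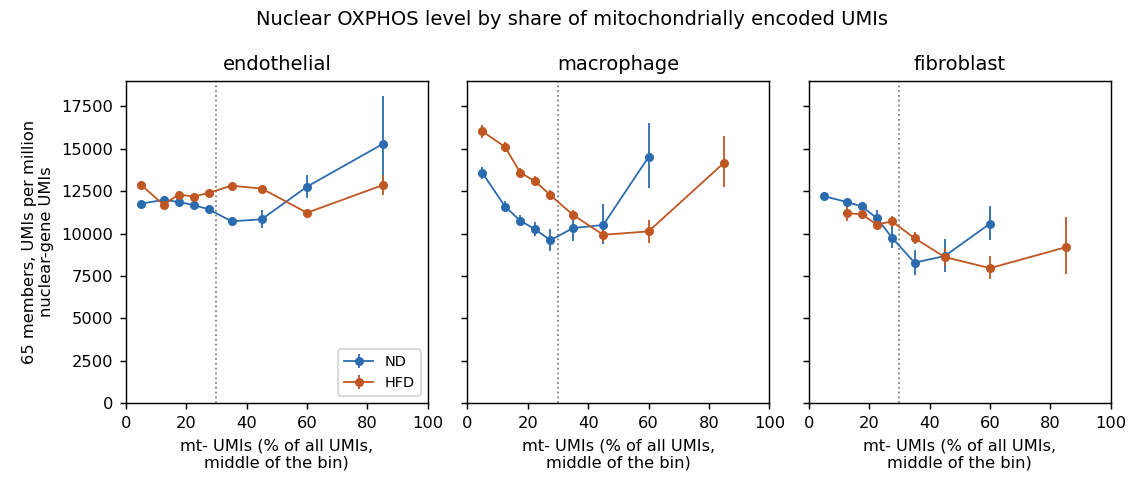
Summed member level (CPM of nuclear-gene UMIs, axis from 0) against the share of mt- UMIs, drawn at the middle of each bin with at least 20 barcodes, for endothelial, macrophage and fibroblast barcodes; bars are 95% counting intervals and the dotted line is the 30% limit. Up to the limit the macrophage lines slope down with HFD above ND, and the endothelial lines are close to level. From 50% to 70% HFD lies below ND in each panel.

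Between the diets, macrophages showed the clearest difference in the members among the 3 large classes. Their summed level was 11548 CPM in ND (11380 to 11718) and 14015 in HFD (13884 to 14147), a log2 ratio of 0.28 (0.25 to 0.30) or 1.21-fold. The ratio was 0.29 for complex I, 0.16 for complex II, 0.22 for complex III, 0.30 for complex V and 0.29 for the complex IV list. Of 63 members with enough UMIs (all but Ndufa4l2 and Atp5s), 61 had a ratio above 0, compared with 45.9% of all 9713 genes, and their median was 0.29 against -0.06. Only 6 passed 1.5-fold, all of them higher, where 13.2% of genes were past it upwards and 16.2% downwards. The difference was small per gene and spread over the pathway.

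The 6 members were Ndufb6, an accessory subunit of complex I (50.5 CPM in ND and 90.9 in HFD, log2 0.85, 0.48 to 1.23), Atp5g1 (195 and 331, 0.76, 0.58 to 0.95), Ndufs5 (0.63), Ndufa1 (0.62), Ndufs3 (0.61) and Ndufc1 (0.60). Uqcrh went the other way at 430 and 382 CPM (-0.17, -0.31 to -0.03), as did Sdha at 118 and 99.2 (-0.25, -0.52 to 0.02), while Sdhb, the iron-sulphur subunit of complex II, stood at 113 and 168 CPM (0.57, 0.33 to 0.83). Ndufa9 (0.00, -0.41 to 0.42) and Sdhd (0.00, -0.34 to 0.35) showed no difference. Among the core subunits of complex I reported here, Ndufs3 stood at 0.61, Ndufs8 at 0.51 and Ndufv2 at 0.49. Ndufv1 (0.35, -0.06 to 0.78), Ndufs1 (0.25, -0.32 to 0.85) and Ndufs7 (0.23, -0.02 to 0.49) had intervals that include 0. Of 26 assembly factors tested, 7 were at least 1.5-fold higher and 2 lower, and of 9 regulators (Ppargc1b, Nrf1, Gabpa, Tfam and others) 0 were higher, 1 was lower and the median was -0.32, with a summed ratio of -0.12 whose interval (-0.32 to 0.07) includes 0.

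The kinds of macrophage differed between the diets. Barcodes with at least 2 genes of foam-type macrophages (Trem2, Gpnmb, Spp1, Atp6v0d2, Mmp12) and fewer than 2 of resident ones (Lyve1, Folr2, F13a1, Cbr2, Timd4) numbered 19 in ND and 182 in HFD, and resident barcodes by the reverse rule 249 and 234. Foam-type barcodes carried more of the members than resident ones in both libraries, at 13544 against 11348 CPM in ND (log2 0.26, 0.18 to 0.33) and 15325 against 12050 in HFD (0.35, 0.32 to 0.38). Within resident barcodes HFD over ND was 0.09 (0.05 to 0.12), within foam-type barcodes 0.18 (0.11 to 0.25), and in the remaining 100 and 116 barcodes 0.28 (0.23 to 0.34). Foam-type barcodes were deeper than resident ones in HFD (median 8851 and 5254 UMIs) and lower in mt- share (15.4% and 23.0%). Atp5g1 stood at 195 CPM in resident barcodes of ND and 250 in HFD, and at 213 (142 to 305) and 403 (372 to 435) in foam-type barcodes. These subsets were defined after the data had been seen.

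Within the kept bins of mt- share the macrophage difference remained, with a log2 ratio of 0.24 below 10% and of 0.34 to 0.38 in the 4 bins from 10% to 30%. It was 0.10 (-0.01 to 0.22) from 30% to 40% and -0.08 (-0.25 to 0.09) from 40% to 50%, and it was reversed at -0.52 (-0.73 to -0.30) from 50% to 70%. Macrophages above the limit, 98 in ND and 439 in HFD, held 10993 and 10805 CPM (-0.02, -0.11 to 0.06), and the interval of that ratio includes 0. Early-response and heat shock genes (Fos, Jun, Hspa1a and others) summed to 14646 CPM in ND macrophages and 8932 in HFD, with 10 of 12 at least 1.5-fold lower in HFD, and their part in the result was not tested.

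In endothelial barcodes the members differed little, from 11812 to 12253 CPM (log2 0.05, 0.04 to 0.07), and the sign depended on the divisor, at -0.04 when mt- UMIs were kept in the divisor. In endothelial barcodes above the 30% limit, 889 in ND and 4097 in HFD, it was 0.16 (0.13 to 0.19), and within bins it ran from -0.03 to 0.13 below the limit and was 0.26 (0.22 to 0.30) from 30% to 40%. From 40% to 50% the ratio was 0.22 (0.15 to 0.30). It was reversed at -0.19 (-0.27 to -0.10) from 50% to 70%, and was -0.25 (-0.50 to 0.01) from 70% to 100%. Of 65 members, 1 was at least 1.5-fold higher and 1 lower, where 7.55% and 14.5% of 12536 genes were, and 43 had a ratio above 0, compared with 42.0% of all genes. Atp5g1 was at 163 CPM in ND and 236 in HFD (0.53, 0.43 to 0.63) and Atp5g3 at 222 and 303 (0.45, 0.37 to 0.54), while Atp5g2 was at 370 and 377 (0.02, -0.05 to 0.10), so the share of Atp5g2 in the c-ring family was 49.0% and 41.1%. Ndufa10 (0.38) and Uqcrq (0.36) followed, and Uqcrh (418 and 336 CPM, -0.32, -0.39 to -0.24), Ndufa6 (-0.28), Ndufa3 (-0.18) and Ndufb4 (-0.17) the lowest apart from Atp5s. Uqcrh was lower in HFD in endothelial barcodes and macrophages, but stood at 345 and 370 CPM in fibroblasts (0.10, -0.04 to 0.25). Ribosomal protein genes, taken as a whole, were also lower in HFD endothelial barcodes (log2 -0.30), and haemoglobin took 0.598% and 4.51% of nuclear-gene UMIs.

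The member past 1.5-fold upwards was Ndufa4l2, with 31 UMIs in ND and 65 in HFD (2.89 and 10.1 CPM, log2 1.81, 1.17 to 2.47). In the endothelial barcodes without any mural marker UMI (1830 in ND and 774 in HFD) Ndufa4l2 was at 1.45 CPM (0.694 to 2.66) and 2.29 CPM (0.987 to 4.50), with overlapping intervals, and in those with at least 1 it was at 5.51 (3.41 to 8.43) and 19.5 (14.8 to 25.3). The 9 mural markers summed to 194 CPM in all ND endothelial barcodes and 309 in HFD. In those with at least 1 mural-marker UMI they summed to 545 and 678 CPM. Cox4i2 showed the same split, at 1.16 and 1.43 CPM without mural UMIs and 2.89 and 9.93 with them. The Ndufa4l2 values without mural UMIs rest on only 10 UMIs in ND and 8 in HFD. The part of mural RNA in the difference between the diets was not tested. The member past 1.5-fold downwards was Atp5s, the coupling factor B gene, at 83 and 25 UMIs (7.75 and 3.89 CPM, -0.99, -1.70 to -0.33). By vessel type, luminal endothelial barcodes (at least 2 of Vwf, Vcam1, Cytl1) held slightly more of the members than capillary ones (at least 2 of Gpihbp1, Cd36, Aqp1, Lpl), at 12537 against 11666 CPM in ND (0.10, 0.08 to 0.13) and 13131 against 12002 in HFD (0.13, 0.09 to 0.16). HFD over ND was 0.07 (0.03 to 0.11) in luminal and 0.04 (0.03 to 0.06) in capillary barcodes. It was 0.20 (0.16 to 0.24) in the remaining 102 ND and 62 HFD barcodes.

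Fibroblasts showed a small difference in the opposite direction to macrophages, from 11799 CPM in ND (11684 to 11915) to 10991 in HFD (10830 to 11153), a log2 ratio of -0.10 (-0.13 to -0.08). The ratio was -0.19 (-0.23 to -0.16) for complex I and -0.07 (-0.14 to -0.0047) for complex III, while the intervals of complex II (-0.00, -0.16 to 0.15) and complex V (-0.01, -0.05 to 0.03) included 0. Of 65 members, 45 had a ratio below 0 and 1 was past 1.5-fold, downwards, where 13.4% of 10886 genes were; upwards 0 members and 8.34% of genes were. The median was -0.11 for members and -0.04 for all genes. Ndufa4l2 was that member, at 204 and 46 UMIs (-1.08, -1.57 to -0.61), and Cox4i2 was also lower (70 and 13 UMIs), while the mural markers summed to 387 CPM in ND fibroblasts and 645 in HFD. Ndufb2 (188 and 133 CPM, -0.50), Ndufs8 (70.0 and 50.5, -0.47), Uqcrb (315 and 233, -0.43) and Ndufv3 (-0.40) followed. At the other end were Uqcrfs1 (48.0 and 69.6 CPM, 0.54, 0.18 to 0.89), Ndufa10 (0.39), Uqcrc1 (0.26), Atp5g1 (0.26) and Atp5g2 (0.23). Atp5g1 was among the 5 highest members in endothelial barcodes, macrophages and fibroblasts. HFD fibroblasts had higher mt- shares (median 22.1% against 13.8%). Within bins of mt- share the ratio was -0.08 to -0.05 from 10% to 25% and 0.13 (0.03 to 0.24) from 25% to 30%. Above the limit it was 0.01 (-0.07 to 0.10), with bins of both signs. The ratio was 0.23 (0.09 to 0.37) from 30% to 40%, -0.01 (-0.19 to 0.17) from 40% to 50% and -0.41 (-0.59 to -0.23) from 50% to 70%.

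**Figure D5:**
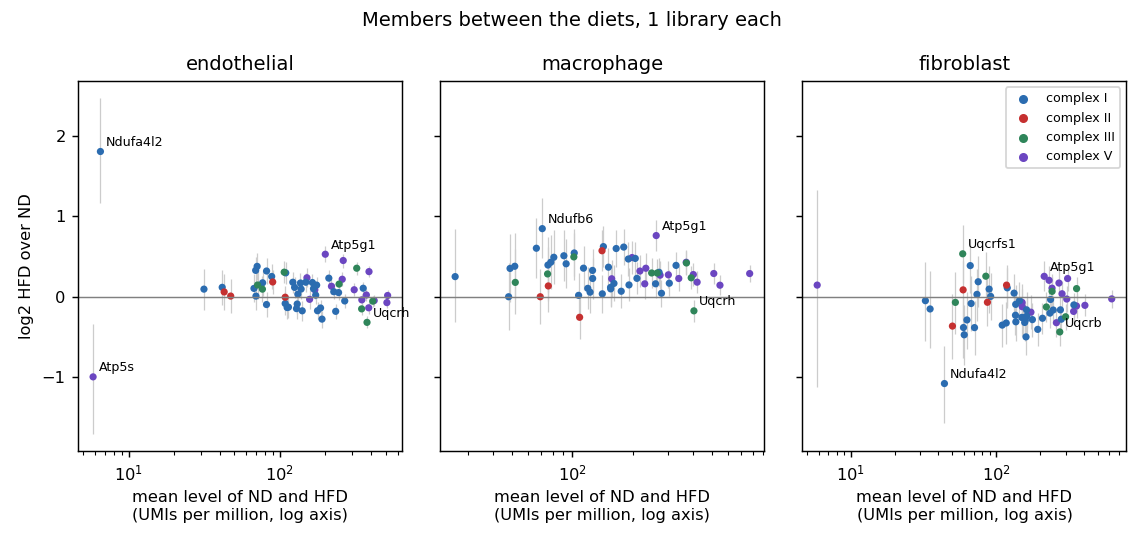
Log2 of HFD over ND for each member with at least 20 UMIs, against its mean level in both libraries (log axis), in endothelial, macrophage and fibroblast barcodes; colours mark the complex and bars are 95% counting intervals. Points cluster around 0 in endothelial barcodes, mostly above 0 in macrophages and mostly below 0 in fibroblasts, with Ndufa4l2 apart in the endothelial and fibroblast panels.

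The smaller classes gave ratios of both signs. In mural cells the members stood at -0.13 (-0.22 to -0.04), with 4 of 61 members at least 1.5-fold higher and 10 lower, where 16.9% and 22.8% of 3108 genes were. T cells stood at 0.40 (0.33 to 0.47), with 24 of 62 members higher and 0 lower, where 23.6% and 29.1% of 4455 genes were. The T cell value rests on 21 HFD barcodes, the part of 305 that passed the mt- limit, in which haemoglobin took 8.40% of nuclear-gene UMIs and the stress genes summed to 3038 CPM against 8249 in ND. B cells held 11828 CPM in ND (11672 to 11986) and 8566 in HFD (8014 to 9146, 17 barcodes). Their ribosomal share was 32.7% in ND and 14.9% in HFD. Dendritic cells went the other way, at 12608 in ND (11932 to 13313, 14 barcodes) and 15132 in HFD (14367 to 15927, 18 barcodes).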

How the data were processed

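Single-cell RNA counts of the aortic arch were analysed for 2 libraries, 1 per diet. The authors made these values with Cell Ranger (3.0.1 in the file headers; the submitters' notes name bcl2fastq and the build mm10) and deposited raw UMI counts per gene and barcode, without normalization, with an annotation not given in the sources used here. A joined matrix of both libraries was not used. Gene positions were taken from GENCODE M21 (GRCm38), in which 10 members overlap another gene entry on their strand and 25 on the other strand, so that some of their UMIs may be assigned uncertainly.

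Barcodes were kept with at least 200 genes, at least 200 UMIs and at most 30% mt- UMIs. UMIs were summed per gate and library and divided by the UMIs of all genes but the 13 mt- genes. Intervals are exact at 95% (Poisson for CPM, Clopper-Pearson for shares, conditional binomial for log2 ratios). A gene entered a comparison with at least 20 UMIs over the 2 sets compared and was called past 1.5-fold. No p-value was computed, because cells of 1 library are not replicates. The code was tested on simulated data. The members, marker gates and gene lists were chosen with earlier results of these data known. Genes named in the text are core subunits of complex I, complex II, Ndufa4, Ndufa4l2, the Atp5g genes and the Cox isoforms, the top 3 by UMIs in each complex, the 6 widest ranges between classes, and the 5 highest and 5 lowest between the diets in the 3 large classes. The values of 1 member that this rule names are not reported here. Atp5b, Ucp1, Ppargc1a, the Ndufs5 promoter and the members singled out in adipocytes, neutrophils and macrophages over endothelial barcodes were named after their values were seen. Foam-type, resident, luminal, capillary and pericyte sets were added after seeing the data. Promoter windows come from RefSeq (GRCm38.p6). Python 3.11.15, numpy 2.4.6, scipy 1.17.1, pandas 2.3.3 and matplotlib 3.10.9 were used.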

Additional observations from a re-analysis of the deposited data

Results flagged for a closer look

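The summed members had opposite signs between the diets in 2 classes: the log2 ratio of HFD over ND was 0.2793 in macrophages and -0.1024 in fibroblasts. Each class is 1 library per diet, and the difference between the classes was not tested.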

How the results depend on the processing

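No paired analysis was possible because each diet is 1 library, and for the same reason no library could be left out. Of the planned recomputations 38 stayed within the counting interval of the value or within 1.5 times of the count, 28 moved and 3 reversed. For HFD over ND in endothelial barcodes the log2 ratio was -0.04055 with mt- UMIs in the divisor, 0.0795 without ribosomal and haemoglobin genes and 0.1268 under median-of-ratios scaling. In macrophages it was 0.2358 with mt- UMIs in the divisor, 0.3433 under median of ratios, 0.2185 with no mt- limit and 0.3217 without the top 5% of barcodes by UMIs. In fibroblasts it was -0.2218 with mt- UMIs in the divisor, -0.05319 without ribosomal and haemoglobin genes, -0.05932 under median of ratios, -0.06418 at 20% mt- UMIs, -0.1482 with no limit and -0.1292 without the top 5%. The count of members at least 1.5-fold higher in HFD endothelial barcodes was 2 under median of ratios, 0 at 90% of marker UMIs, 2 at 20% mt- UMIs and 0 at a minimum of 100 UMIs. The count of lower members was 0 at 20% mt- UMIs and 0 at 2-fold. Macrophages over endothelial barcodes in ND were -0.06342 with mt- UMIs in the divisor, -0.008384 without ribosomal and haemoglobin genes, 0.2442 under median of ratios, 0.007993 at 20% mt- UMIs, -0.1018 with barcodes weighted alike and -0.0973 without the top 5%, so its sign is not stable. In HFD it was 0.2129 with mt- UMIs in the divisor, 0.4615 under median of ratios, 0.267 at 20% mt- UMIs, 0.1235 with no limit, 0.1182 with barcodes weighted alike and 0.1705 without the top 5%. Settings added after seeing the data gave, above the 30% limit, 0.1574 in endothelial barcodes, -0.02479 in macrophages and 0.01338 in fibroblasts, then 0.08656 in resident and 0.1782 in foam-type macrophages and 0.06689 in luminal endothelial barcodes. The cause of these shifts was not tested. Classes with under 20 barcodes have wide intervals, and the counts say nothing of the spread between mice.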
